A study of Arabidopsis thaliana with 44 samples.

Results

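The nuclear genes for the light-harvesting antenna proteins, the photosystem and electron transport subunits and the small subunit of Rubisco were followed across all libraries of an RNA-seq study of Arabidopsis thaliana shoot apices. The 46 genes, of 29696 in the deposited table, were taken from a list of loci and not by a cut on their values. Earlier results of these data were known when they were chosen. They comprise 13 LHCB, 4 LHCA, 12 PSA, 10 PSB, 3 PET and 4 RBCS genes. Each was counted in all 44 libraries, with a lowest count of 700, and all 46 passed the filter on low counts.

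Shoot apices were taken from seedlings of the Col-0 ecotype, at 7 days after germination. They grew in soil, with 16 h light and 8 h dark, and their total RNA was made into libraries by Smart-seq3, which copies whole transcripts. Mutants had 4 libraries each and carried the labels ddm1, ago4, ago5, ago9, ago5ago9, ago4ago9 and ago4ago5ago9. AGO4, AGO5 and AGO9 are ARGONAUTE proteins, which bind small RNAs, and DDM1 is a chromatin remodeller needed to keep DNA methylated. The 2 wild types were labelled wt col-0 and wt21, with 8 libraries each. The labels give no alleles, no number of plants per library and no account of what sets wt21 apart from wt col-0. Nor do they say what sets wild-type replicates 5 to 8 apart from replicates 1 to 4, so the replicate sets were kept apart. Nothing in the labels says that replicates came from separate plants, so p-values measure the spread between these libraries.

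Library totals ran from 4474807 to 10620084 estimated counts. They were 4985458 to 6577648 in wild-type replicates 1 to 4 and 7529636 to 10168438 in replicates 5 to 8. DDM1 stood at 0.147 to 0.540 CPM (counts scaled to the effective library size) in the ddm1 libraries and at 10.2 to 14.3 CPM in wt col-0 replicates 1 to 4. AGO4 stood at 0 to 1.21 CPM in ago4, at 0.142 to 0.952 CPM in ago4ago9 and at 19.6 to 27.9 CPM in the 8 wt col-0 libraries. It went against the labels in 2 groups. The libraries labelled ago9 replicates 1 and 2 held 0.215 and 0 CPM of AGO4, against 20.8 and 23.1 CPM in replicates 3 and 4, and the 4 libraries labelled ago4ago5ago9 held 15.6 to 24.9 CPM. These groups are therefore named by their labels only. Of 10 shoot meristem markers, WUS was at 0 in nearly all libraries and CLV3 reached at most 0.936 CPM, so the samples cannot be read as meristem alone. The summed levels of the other marker lists were 0 to 0.800 CPM for seed storage, 33.2 to 75.6 CPM for the stomatal lineage and 20.6 to 47.4 CPM for vascular tissue. In bulk tissue, fewer cells of a type and less RNA per cell cannot be told apart.

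Oxygenic photosynthesis runs on complexes encoded by both the nucleus and the chloroplast. LHCB proteins form the antenna of photosystem II and LHCA proteins that of photosystem I. PSA and PSB genes encode subunits of photosystems I and II, PETC the Rieske protein of the cytochrome complex and PETE plastocyanin, the copper protein that carries electrons between them. RBCS genes encode the small subunit of Rubisco, the enzyme that fixes carbon dioxide. These nuclear genes are known to respond to light, to the circadian clock and to signals from the chloroplast, in part through short promoter motifs such as the G-box and the I-box.

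Promoters were searched because these motifs are the classical light-response elements of antenna and RBCS genes. The window was the 250 bases before each annotated gene start in RefSeq TAIR10.1, and both strands were read. The G-box (CACGTG) lay in 9 of 46 windows, or 19.6%, against 6.49% of 27443 promoters of the same length. The I-box (GATAAG) lay in 12, or 26.1%, against 12.3%. A CCA1 site (AAAAATCT), named after the clock protein that binds it, lay in 5, or 10.9%, against 6.69%. The evening element (AAAATATCT) lay in 0 of 46, against 2.36%. A match describes letters and not a bound site, and no searched motif contains another. Windows are shown for an antenna gene with a CCA1 site, for plastocyanin and for the RBCS gene with 4 matches, each 5′ to 3′ on the gene's own strand, with the matches in capitals. They lie at chr1:10475970-10476219 (LHCB1.1, minus strand), chr1:7043393-7043642 (PETE2, minus strand) and chr5:15382072-15382321 (RBCS2B, minus strand).
LHCB1.1: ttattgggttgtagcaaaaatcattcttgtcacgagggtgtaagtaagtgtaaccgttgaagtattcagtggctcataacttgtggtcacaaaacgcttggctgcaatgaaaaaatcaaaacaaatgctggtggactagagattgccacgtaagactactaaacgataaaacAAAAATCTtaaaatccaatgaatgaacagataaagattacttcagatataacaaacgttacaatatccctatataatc
PETE2: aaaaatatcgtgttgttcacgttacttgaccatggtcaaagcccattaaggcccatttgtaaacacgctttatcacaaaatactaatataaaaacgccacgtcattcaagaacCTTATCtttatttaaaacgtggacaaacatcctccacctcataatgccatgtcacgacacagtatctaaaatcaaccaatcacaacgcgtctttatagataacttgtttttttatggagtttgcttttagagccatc
RBCS2B: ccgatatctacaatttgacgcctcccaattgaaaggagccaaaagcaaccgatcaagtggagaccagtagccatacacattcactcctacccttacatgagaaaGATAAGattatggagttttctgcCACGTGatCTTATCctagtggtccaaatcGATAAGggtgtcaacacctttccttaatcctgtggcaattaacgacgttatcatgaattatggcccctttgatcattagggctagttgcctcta
The LHCB1.1 window holds 1 CCA1 site, the PETE2 window 1 I-box and the RBCS2B window 1 G-box and 3 I-boxes. The 9 genes with a G-box were LHCB2.3, LHCB4.1, LHCB6, LHCA4, PSAE-2, PSAH-2, PSBQ-1, PSBQ-2 and RBCS2B. The annotated start of LHCB2.3 is its start codon, so its window may hold leader sequence and is not shown. The 5 with a CCA1 site were LHCB1.1, LHCB1.4, LHCA4, PSAN and PSAO.

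Several members lie side by side and are near-identical, which limits how well reads can be assigned between them. LHCB1.2, LHCB1.1 and LHCB1.3 lie together on chromosome 1 between positions 10472280 and 10479114, and their coding sequences are 95.6% to 96.4% identical. LHCB1.5 and LHCB1.4 lie on chromosome 2 between 14522524 and 14525918 and are 92.5% identical. RBCS3B, RBCS2B and RBCS1B lie on chromosome 5 between 15376988 and 15385320 and are 96.7% to 97.3% identical, while RBCS1A on chromosome 1 is 90.4% to 90.6% identical to them. LHCB2.1 and LHCB2.2 are 92.9% identical, and LHCB2.3 is 84.5% to 84.7% identical to them. All these identities are over aligned bases and leave out gaps. Beside 798 aligned bases, the gaps were 156 bases between LHCB2.1 and LHCB2.2. Between LHCB2.3 and these 2 genes they were 255 and 99 bases. The table held a fractional count in at least 1 library for 23 of the 46 members, so single members of these clusters are less certain than their sums.

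Levels between genes were compared per length, as CPM per kb of the RefSeq transcript. In wt col-0 replicates 1 to 4, RBCS1A (AT1G67090) was the highest at 34210 ± 1709 CPM per kb (SD, n = 4). LHCB1.3 (AT1G29930) followed at 22932 ± 929 CPM per kb. RBCS3B (AT5G38410) at 15542 ± 1851, LHCB1.1 (AT1G29920) at 14097 ± 1803 and LHCB1.5 (AT2G34420) at 13752 ± 1753 CPM per kb came next, and these 3 did not differ beyond their spread. The lowest member was PETE1 (AT1G76100), the minor plastocyanin gene, at 175 ± 15.4 CPM per kb. Summed over each family in the same libraries, LHCB stood at 79005 CPM per kb, RBCS at 58268, PSB at 20747, PSA at 18462, LHCA at 14064 and PET at 3848. The LHCB and RBCS sums each exceeded those of the other 4 families together.

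Together the members took 10.4% to 31.6% of all counts in a library, with a median of 24.4%. The share was 22.8% ± 1.34 (SD, n = 4) in wt col-0 replicates 1 to 4 and 15.9% ± 1.69 in replicates 5 to 8. In wt21 it was 24.2% ± 3.24 and 20.3% ± 1.86. The 24 libraries with an ago label held 20.0% to 31.6%, and the 4 ddm1 libraries 13.7% ± 2.36. The group means were thus lowest in ddm1 and in wt col-0 replicates 5 to 8, while libraries of wt21 replicates 5 to 8 overlapped with replicates 1 to 4.

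**Figure D1:**
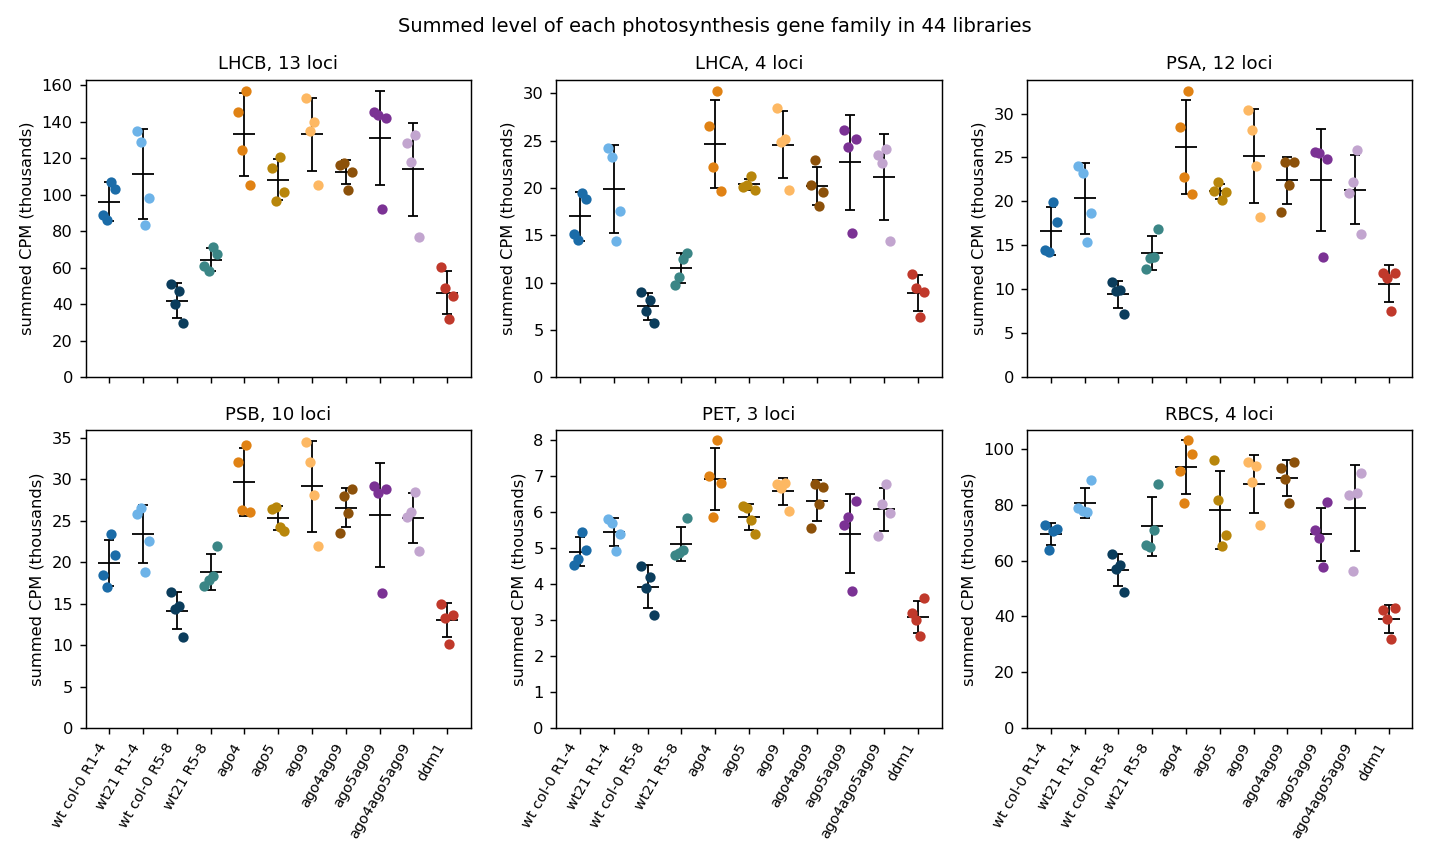
Summed CPM (in kCPM) of the members of each family in each library, 1 panel per family and 1 column for each of the 7 mutants and 4 wild-type sets; points are libraries and bars are mean ± SD (n = 4). Summed LHCB is lowest in wt col-0 replicates 5 to 8 (42017 CPM) and ddm1 (46379 CPM), while summed RBCS is lowest in ddm1 (39091 CPM).

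The wild types were compared first, since no mutant group goes beyond replicate 4 and the choice of wild-type libraries sets what a mutant is measured against. In wt col-0, antenna genes were lower in replicates 5 to 8 than in replicates 1 to 4, and RBCS genes were not called. Summed LHCB CPM was 88857, 85899, 106869 and 103359 in replicates 1 to 4 and 51184, 39961, 47253 and 29670 in replicates 5 to 8, with no overlap. Summed RBCS CPM was 72625, 63683, 70454 and 71403, then 62209, 56909, 58429 and 48814. Both sums were lower in every library of the second set, LHCB by far the more. The ratio of summed LHCB to summed RBCS was 1.38 ± 0.127 in the first set and 0.735 ± 0.101 in the second (SD, n = 4).

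The fit across all 17557 features tested (edgeR's quasi-likelihood test, Benjamini-Hochberg adjusted p under 0.05) called 30 of the 46 members lower and 0 higher in wt col-0 replicates 5 to 8, where 5.06% of all features were called lower. The median log2 fold change of the members was -0.81, against 0 over all features. The values of 34 members did not overlap between the sets, all lower in replicates 5 to 8, against 8.13% of all features. All 13 LHCB and all 4 LHCA genes fell, with median log2 fold changes of -1.26 and -1.17. In PSA 8 of 12 fell, in PSB 4 of 10 (PSBP-1, PSBQ-2, PSBS and PSBW), in PET only PETE1 of 3 and in RBCS 0 of 4. The medians were -0.78 in PSA, -0.43 in PSB, -0.35 in PET and -0.21 in RBCS.

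LHCB1.3, the most abundant antenna gene, stood at 27948, 26725, 28806 and 29346 CPM in wt col-0 replicates 1 to 4 and at 17235, 12924, 16851 and 9457 CPM in replicates 5 to 8. Its fitted level in the second set was 0.5005 times that in the first (edgeR adjusted p = 0.000513). LHCA1 (AT3G54890), a photosystem I antenna gene, had 5597, 5178, 7404 and 6814 CPM and then 3160, 2331, 2707 and 1889 CPM (-1.31 on the log2 scale, edgeR adjusted p = 1.94e-05). Neither gene's sets overlapped. PSAF (AT1G31330), the subunit of photosystem I at which plastocyanin docks, had 2518, 2526, 3345 and 3151 CPM and then 1750, 1328, 1530 and 1040 CPM (log2 fold change -1.03, edgeR adjusted p = 0.000691). The smallest p-values were those of LHCB4.2 (AT3G08940), an inner antenna protein of photosystem II (log2 fold change -1.20 ± 0.14, SE, edgeR adjusted p = 3.18e-08), LHCA4 (AT3G47470, -1.48 ± 0.18, 2.41e-07) and LHCB2.2 (AT2G05070, -1.74 ± 0.23, 5.85e-07). LHCB2.2, an outer antenna protein, also had the lowest log2 fold change of the 46.

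The most abundant members of the other 3 families were not called between the wt col-0 sets. PSBR (AT1G79040), a subunit near the oxygen-evolving complex, had 4961, 4726, 6103 and 5625 CPM in replicates 1 to 4 and 5220, 4185, 4558 and 3203 CPM in replicates 5 to 8 (log2 fold change -0.32, edgeR adjusted p = 0.248). PETE2 (AT1G20340), the major plastocyanin gene, had 3746, 3924, 4494 and 4082 CPM and then 3593, 3141, 3455 and 2525 CPM (-0.35, adjusted p = 0.0942 by edgeR). RBCS1A had 45025, 40522, 42869 and 45098 CPM and then 38379, 34247, 36961 and 29517 CPM (-0.32, edgeR adjusted p = 0.273). The values of PETE2 and RBCS1A did not overlap between the sets, but neither gene passed the adjusted threshold. RBCS1B (AT5G38430) had the highest log2 fold change of the 46, at 0.27.

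In wt21 the antenna families had the lowest medians and RBCS the highest. Summed LHCB CPM was 134842, 128980, 83389 and 97962 in replicates 1 to 4 and 61022, 57975, 71185 and 67721 in replicates 5 to 8. Summed RBCS CPM was 78897, 77669, 77346 and 88723, then 65665, 64929, 70862 and 87550, and these sets overlap. The test called 17 members lower and 0 higher in replicates 5 to 8, where 2.04% of features were called lower. In 19 members the sets did not overlap, all lower in replicates 5 to 8, against 6.24% of features. The called members were 9 of 13 LHCB, 3 of 4 LHCA, 3 of 12 PSA, 2 of 10 PSB, 0 of 3 PET and 0 of 4 RBCS genes. The family medians of log2 fold change ran from -0.75 in LHCA and -0.68 in LHCB to -0.11 in PET and 0.05 in RBCS. Leaving out replicate 1, 2, 5 or 6 of wt21 lowered this count to 7, 9, 10 and 8 respectively. Over all features, calls in either direction fell from 730 to 328, 311, 467 and 305 in the same fits.

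LHCB1.3 had 36441, 34816, 24587 and 27926 CPM in wt21 replicates 1 to 4 and 19038, 16770, 21922 and 19459 CPM in replicates 5 to 8 (log2 fold change -0.68, edgeR adjusted p = 0.0379). LHCA1 had 8726, 8466, 4975 and 6260 CPM, then 3543, 3807, 4317 and 4704 CPM (-0.80, edgeR adjusted p = 0.019). PSAF had 4122, 4048, 2445 and 2902 CPM, then 1802, 1954, 2000 and 2433 CPM (-0.72, edgeR adjusted p = 0.037). These sets did not overlap in any of the 3 genes, but the calls of all 3 were lost without replicate 1, 2, 5 or 6, that of PSAF also without replicate 7 and that of LHCB1.3 also without replicate 8. The smallest p-values were those of LHCA4 (-1.03 ± 0.18, edgeR adjusted p = 0.000496), LHCB1.4 (AT2G34430, -1.29 ± 0.27, 0.00319) and PSBQ-2 (AT4G05180), an extrinsic photosystem II protein (-0.75, 0.00414). LHCB1.4 was the lowest of the 46.

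PSBR in wt21 had 7188, 6960, 5182 and 6045 CPM in replicates 1 to 4 and 4939, 5196, 5572 and 6425 CPM in replicates 5 to 8. PETE2 had 4810, 4675, 4094 and 4494 CPM, then 3942, 3937, 4055 and 4768 CPM. RBCS1A had 49672, 49225, 47859 and 52750 CPM, then 38742, 37711, 42850 and 47252 CPM. The PSBR and PETE2 sets overlap and the RBCS1A sets do not, and none of the 3 genes was called. RBCS2B (AT5G38420) had the highest log2 fold change of the 46, at 0.28 (edgeR adjusted p = 0.501).

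The change between replicate sets was also tested for a difference between the wild types. The interaction term called 0 of 46 members by edgeR, as by DESeq2 and limma voom, where edgeR called 0.0342% of features. An unadjusted p under 0.05 was found for 5 members, LHCB2.3, LHCB4.2, LHCB2.2, PSAD-2 and LHCB2.1. The fall was the smaller in wt21 for LHCB2.3 (AT3G27690) by 1.07 ± 0.32 on the log2 scale (SE; edgeR adjusted p = 0.392).

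Set directly against each other, wt21 and wt col-0 differed in replicates 5 to 8. Within replicates 1 to 4, edgeR called 0 members and 0% of features. There 2 members had an unadjusted p under 0.05, DESeq2 and limma voom called 0 members, and the median log2 fold change of wt21 over wt col-0 was 0.25. Within replicates 5 to 8, edgeR called 5 members higher in wt21, where 0.45% of features were called higher. These were LHCB2.3 (1.37 ± 0.23 on the log2 scale, edgeR adjusted p = 0.000564), LHCB2.2 (1.14 ± 0.22, 0.0042), LHCB4.2 (0.67 ± 0.14, 0.00525), PSAD-2 (1.08 ± 0.23, 0.00784) and LHCB2.1 (AT2G05100, 1.02 ± 0.23, 0.0147). LHCB2.3 had 265, 236, 242 and 150.5 CPM in wt col-0 replicates 5 to 8 and 419, 585, 526 and 770 CPM in wt21, with no overlap. PSAD-2 (AT1G03130), the ferredoxin-docking subunit of photosystem I, had 217, 245, 189 and 151 CPM in wt col-0 and 346, 419, 385 and 550 CPM in wt21. The values of 34 members lay higher in wt21 without overlap, against 4.1% of features, and the median log2 fold change was 0.53. The 5 calls became 3 without wt21 replicate 8 and 1 without wt col-0 replicate 8. They became 12 by DESeq2 (0.954% higher of the 15514 features left with an adjusted p) and 22 with only these 8 libraries in the fit (1.03%).

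**Figure D2:**
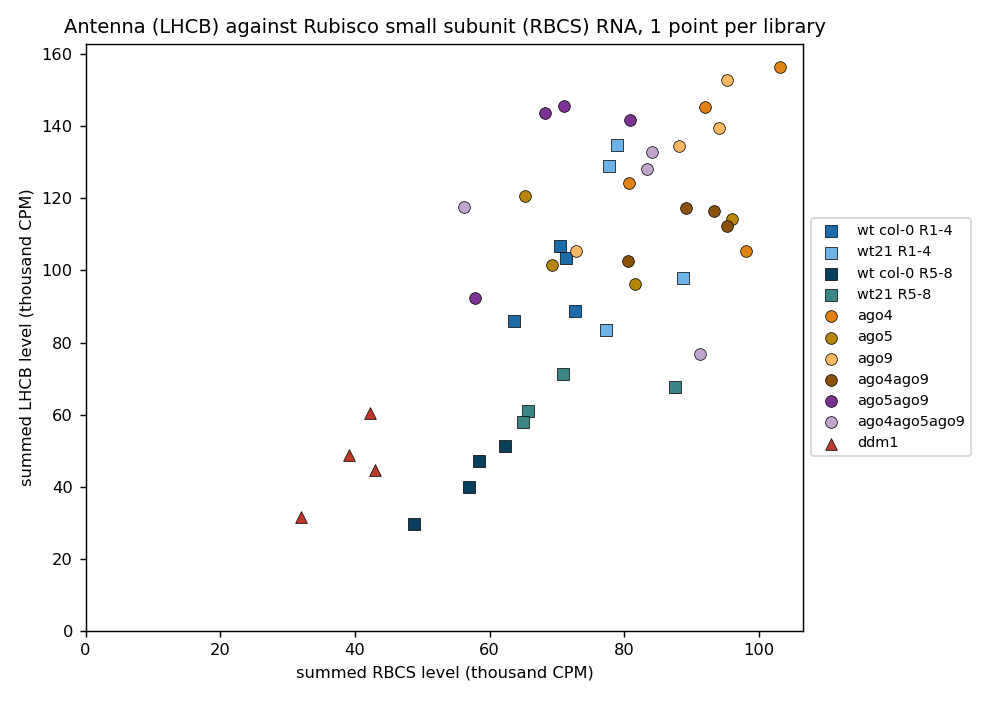
Summed LHCB CPM (vertical, in kCPM) against summed RBCS CPM (horizontal, in kCPM), 1 point per library, coloured by group and wild-type set. Wild-type replicates 5 to 8 lie lower on the LHCB axis than replicates 1 to 4, with RBCS sums that overlap in wt21 and not in wt col-0, and ratios of 0.608 to 1.005 against 1.08 to 1.71, and the ddm1 libraries are low on both axes, with ratios of 0.991 to 1.43.

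Of the regulators of light responses, 1 of 13 tested rose and 5 fell in wt col-0 replicates 5 to 8, and 1 rose and 1 fell of 6 sigma factors and of 9 clock genes each. Between the same sets 1738 of all 17557 features were called in either direction, with 5.06% of the 17557 called lower. The summed regulators were at 0.932 times and the summed sigma factors at 0.997 times their level in replicates 1 to 4. Single genes of these lists stood further apart. PIF4, a transcription factor inactivated by light-activated phytochrome, had 23.0, 24.5, 32.4 and 40.2 CPM in wt col-0 replicates 1 to 4 and 5.93, 4.50, 6.24 and 2.37 CPM in replicates 5 to 8 (log2 fold change -2.68, edgeR adjusted p = 1.39e-10). HY5, a transcription factor that promotes greening, had 15.3, 12.2, 10.2 and 6.34 CPM and then 27.2, 38.7, 31.1 and 36.8 CPM (1.60, edgeR adjusted p = 7.03e-06). SIG5, a light-induced sigma factor of the chloroplast RNA polymerase, had 4.98, 6.38, 3.25 and 3.62 CPM and then 20.9, 28.8, 26.1 and 26.2 CPM (2.47, edgeR adjusted p = 4.07e-06). PIF4 fell while HY5 and SIG5 rose, each without overlap. PRR7, a clock gene, fell by 1.85 on the log2 scale (edgeR adjusted p = 1.08e-06). In wt21 these 4 genes were called in the same directions, with log2 fold changes of -1.79 for PIF4, 1.32 for HY5, 1.22 for SIG5 and -1.44 for PRR7, and ELIP2, a light stress gene, rose (1.38).

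The sets also differed outside light and clock genes. PYK10, a root beta-glucosidase gene, stood at 197 to 269 CPM in wt col-0 replicates 1 to 4 and at 521 to 803 CPM in replicates 5 to 8 (log2 fold change 1.43, edgeR adjusted p = 2.4e-07). In wt21 it stood at 200 to 256 and 414 to 493 CPM. The summed level of the root list, nearly all of it PYK10, was 198 to 269 CPM in wild-type replicates 1 to 4 and 417 to 803 CPM in replicates 5 to 8. It therefore adds little to the values of this 1 gene. That of the 10 shoot meristem markers was 16.4 to 20.3 and 17.8 to 28.7 CPM, and KNAT6, a meristem homeobox gene, rose by 0.77 on the log2 scale in wt col-0. The part of sampling time, tissue makeup or depth in the antenna difference was not tested.

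Other genes of the pathway were called between the wt col-0 sets too. Of 16 chlorophyll synthesis genes tested, 4 fell, led by HEMA1, the glutamyl-tRNA reductase that starts the pathway (-0.69, edgeR adjusted p = 9.14e-06), and CAO, which makes chlorophyll b (-0.72, 4.11e-05). Of 16 carbon fixation genes, 3 fell, led by HCEF1, the chloroplast fructose bisphosphatase (-0.48, edgeR adjusted p = 0.00482), and RPE (-0.35, 0.0107). Of 9 electron transport and ATP synthase genes, only FD2, the major leaf ferredoxin, fell (-0.65). In wt21 the called genes of these lists were HEMA1, which fell (-0.36), and 2 carbon fixation genes that rose, CP12-2 (0.84) and PGK2 (0.39). Within replicates 5 to 8, HCEF1 (0.46, edgeR adjusted p = 0.0422) and PIF4 (0.98, 0.0417) were called higher in wt21 than in wt col-0.

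For ddm1 the first control was the wt col-0 set that bears the same numbers, replicates 1 to 4. All families were lower in ddm1, the antenna and RBCS genes most. Summed LHCB CPM was 60460, 48749, 31680 and 44629 in ddm1, below all 8 wild-type libraries of replicates 1 to 4. Summed RBCS CPM was 42300, 39113, 31976 and 42975, below every other library of the study. The ratio of LHCB to RBCS was 1.18 ± 0.202 in ddm1 (SD, n = 4), and its range of 0.991 to 1.43 overlapped with the 1.08 to 1.71 of wild-type replicates 1 to 4.

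The test called 41 of 46 members lower in ddm1 and 0 higher, where 7.8% of features were called lower. The values of 43 members lay below those of wt col-0 replicates 1 to 4 without overlap, against 7.79% of features. The median log2 fold change was -0.73, against 0.00 over all features. All 13 LHCB fell (median -1.06), as did all 4 LHCA (-0.97), all 10 PSB (-0.59), 9 of 12 PSA (-0.64), 2 of 3 PET (-0.53) and 3 of 4 RBCS genes (-0.86). The 5 not called were PSAD-1 (AT4G02770, edgeR adjusted p = 0.168), PSAE-2 (AT2G20260, 0.0517), PSAN (AT5G64040, 0.0553), PETC (AT4G03280, log2 fold change -0.37, adjusted p 0.101) and RBCS1B (-0.55 ± 0.28, 0.186). The count was 27 without ddm1 replicate 3 and 27 without wt col-0 replicate 3. Over all features, calls in either direction rose from 3337 to 3519 and 3382 in the same fits.

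Of the 46 members LHCB2.3 was the lowest in ddm1 by log2 fold change. It stood at 151, 185, 100 and 181 CPM in ddm1 and at 606, 641, 905 and 640 CPM in wt col-0 replicates 1 to 4, a level 0.221 times that of wild type (-2.17 ± 0.24, edgeR adjusted p = 1.39e-09). The groups are far from overlapping. LHCB4.2 had 747, 552, 719 and 725 CPM in ddm1 against 1200, 1197, 1331 and 1388 CPM (-0.90 ± 0.14, edgeR adjusted p = 1.7e-06). LHCB1.4 had 943, 941, 583 and 875 CPM against 2094, 2330, 3590 and 2652 CPM (-1.67 ± 0.27, edgeR adjusted p = 5.81e-06). These were the 3 members with the smallest p-values. PETC had the highest log2 fold change, with 509, 530, 418 and 591 CPM in ddm1 against 617, 603, 765 and 654 CPM.

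The most abundant member of each family fell in ddm1. LHCB1.3 had 17927, 14551, 8878 and 12829 CPM (log2 fold change -1.06 ± 0.20, edgeR adjusted p = 6.19e-05), all below the lowest wt col-0 value of replicates 1 to 4, 26725 CPM. LHCA1 had 4054, 3380, 2156 and 3434 CPM (-0.94 ± 0.21, edgeR adjusted p = 0.000592). Both stood at levels near those of wild-type replicates 5 to 8. PSAF had 2115, 1926, 1279 and 1932 CPM (-0.67 ± 0.21, edgeR adjusted p = 0.018), and PSBR had 3818, 3847, 2744 and 4047 CPM (-0.57 ± 0.17, edgeR adjusted p = 0.0136). These 2 calls were lost without ddm1 replicate 3 (adjusted p 0.0791 and 0.0637) and without wt col-0 replicate 3 (0.0714 and 0.065), and that of PSAF without wt col-0 replicate 4 (0.0628). PETE2 had 2567, 2294, 2046 and 2908 CPM (-0.73 ± 0.14, edgeR adjusted p = 7.15e-05), and RBCS1A had 28701, 26630, 21380 and 27517 CPM (-0.74 ± 0.18, edgeR adjusted p = 0.0018). For RBCS1A every ddm1 library lay below every wild-type library of either set. RBCS2B had 2703, 2719, 2776 and 3852 CPM and RBCS3B had 9769, 9184, 6220 and 10040 CPM, with log2 fold changes of -0.99 ± 0.21 and -1.06 ± 0.18 (edgeR adjusted p = 0.000372 and 1.46e-05).

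**Figure D3:**
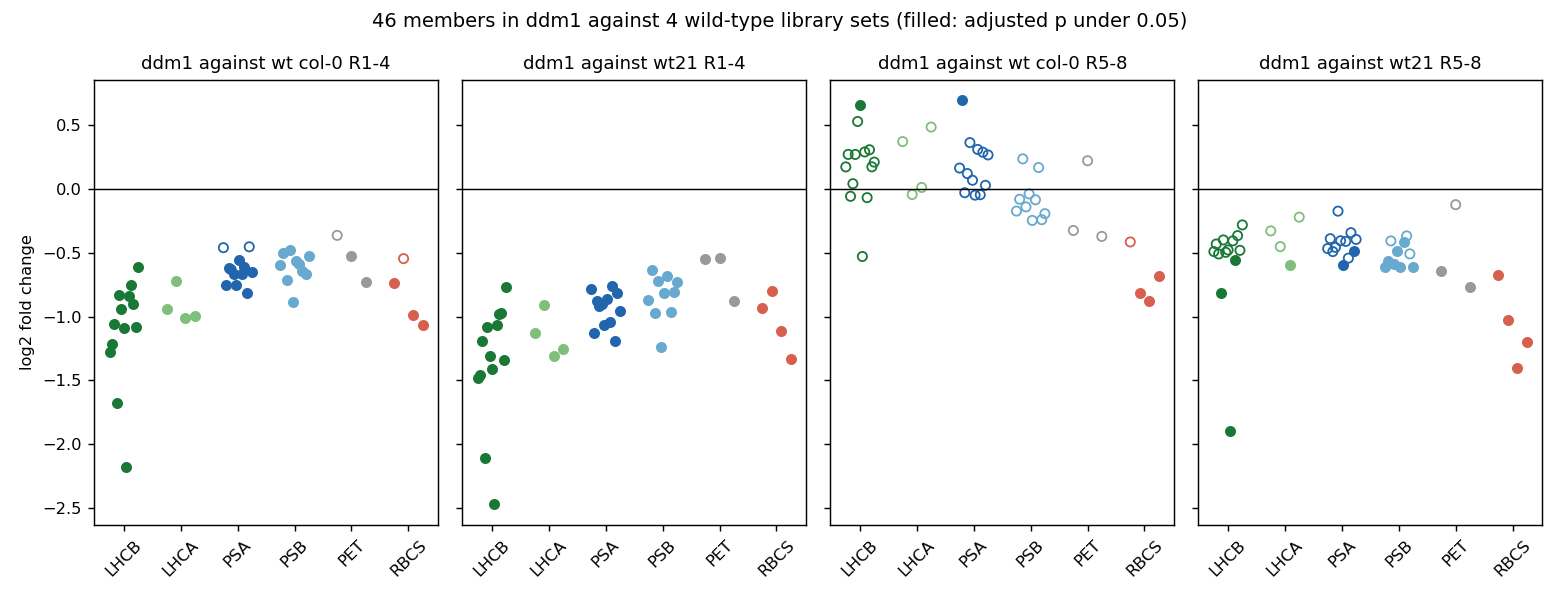
Log2 fold change of the 46 members in ddm1 against each of 4 wild-type sets, 1 panel per set, grouped by family; filled points have an edgeR adjusted p under 0.05. The RBCS genes lie below 0 in every panel, while the LHCB genes lie below 0 against replicates 1 to 4 and around 0 against wt col-0 replicates 5 to 8, where their median is 0.21.

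How far antenna genes were lower in the ddm1 libraries depended on the wild-type set. Against wt21 replicates 1 to 4, 46 of 46 members were called lower, where 8.09% of features were, with a median log2 fold change of -0.97. Against wt col-0 replicates 5 to 8, 3 members were called lower, where 6.32% of features were, and 2 higher, where 8.83% were, with a median of 0.03. Against wt21 replicates 5 to 8, 19 were called lower, where 7.63% were, with a median of -0.49. These comparisons share the ddm1 libraries. Family medians against wt col-0 replicates 5 to 8 were 0.21 in LHCB, 0.19 in LHCA, 0.14 in PSA, -0.12 in PSB, -0.33 in PET and -0.75 in RBCS.

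RBCS genes were called lower in ddm1 against both sets of replicates 5 to 8. Against wt col-0, the 3 members called lower were RBCS2B (-0.88 ± 0.21, edgeR adjusted p = 0.00163), RBCS3B (-0.68 ± 0.18, 0.0051) and RBCS1B (-0.81 ± 0.28, 0.0435), while RBCS1A did not pass (-0.42 ± 0.18, 0.115). Against wt21 replicates 5 to 8, all 4 were called, with log2 fold changes of -0.68 for RBCS1A, -1.02 for RBCS1B, -1.40 ± 0.21 for RBCS2B and -1.20 ± 0.18 for RBCS3B. The 2 members called higher against wt col-0 replicates 5 to 8 were LHCB2.2 (0.66 ± 0.22, edgeR adjusted p = 0.036) and PSAD-2 (0.69 ± 0.23, 0.0281). LHCB2.3 had a log2 fold change of -0.53 ± 0.23 against wt col-0 replicates 5 to 8 (edgeR adjusted p = 0.126) and of -1.90 ± 0.24 against wt21 replicates 5 to 8 (2.29e-08).

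Genes of the wider pathway were also called lower in ddm1. Relative to wt col-0 replicates 1 to 4, 10 of 16 chlorophyll synthesis genes tested fell, led by CAO (-0.67 ± 0.12, edgeR adjusted p = 3.35e-05) and CHLD, a magnesium chelatase subunit (-0.46, 0.000373). Of 16 carbon fixation genes 12 fell, led by RCA, the Rubisco activase, at 0.499 times its wild-type level (edgeR adjusted p = 5.28e-07), and HCEF1 (-0.68, 1.41e-05). Of 9 electron transport and ATP synthase genes 7 fell, led by FD2 (-0.72, edgeR adjusted p = 6.53e-05) and PGRL1A, which acts in cyclic electron flow (-0.50, 0.000323). Of 13 regulators 5 fell, led by PIF4 (-1.03, edgeR adjusted p = 0.000363) and PIF5 (-0.62, 0.000668), and of 6 sigma factors 3 fell, led by SIG4 (-1.27, 3.53e-05) and SIG3 (-0.82, 0.00194). Of the clock list LUX was called (-0.81, edgeR adjusted p = 0.0142), and of 2 light stress genes 0 were called. Measured against the wt col-0 libraries 5 to 8, those lower were 2 of 16 for chlorophyll synthesis, 4 of 16 for carbon fixation and 1 of 9 for electron transport, and against wt21 replicates 5 to 8 they were 8, 14 and 9.

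Markers of other tissue moved with ddm1 as well. The summed shoot meristem markers stood at 27.3 ± 5.41 CPM in ddm1 (SD, n = 4), against 16.4 to 20.3 CPM in wild-type replicates 1 to 4 and 17.8 to 28.7 CPM in replicates 5 to 8. Every ddm1 library lay above replicates 1 to 4. KNAT6 rose (0.88 ± 0.22, edgeR adjusted p = 0.0024). PYK10 stood at 131 to 216 CPM and fell by 0.58 on the log2 scale (edgeR adjusted p = 0.0156). STM, a defining meristem gene, was detected at 1.21 to 7.74 CPM across the study. The part of tissue makeup in the lower photosynthesis levels was not tested.

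**Figure D4:**
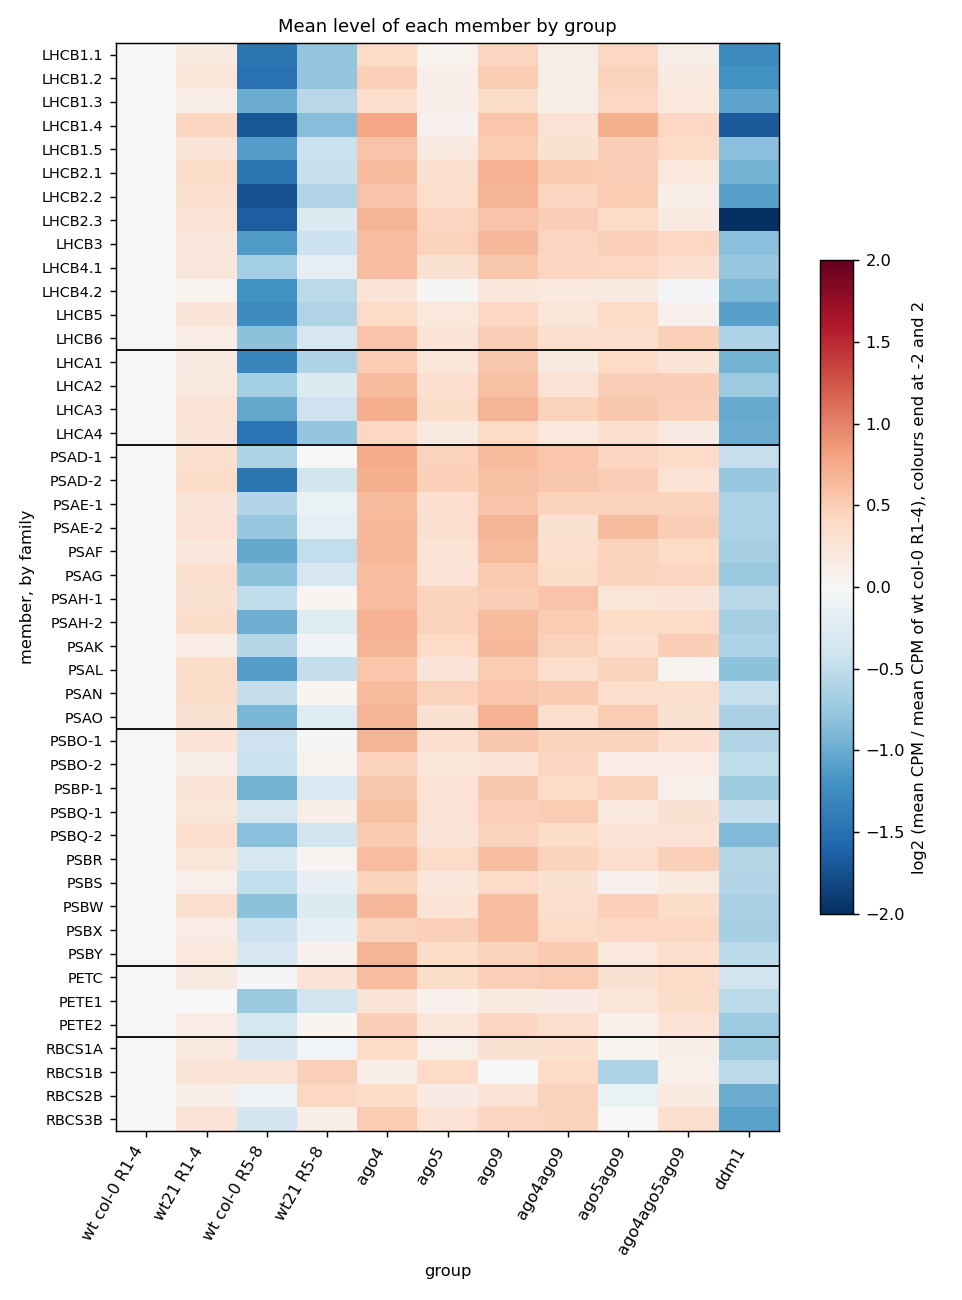
Log2 of each member's mean CPM over its mean CPM in wt col-0 replicates 1 to 4, 46 rows by family and 11 columns for the mutants and wild-type sets (n = 4 libraries each); the colour scale ends at -2 and 2. The ddm1 column and both columns of wild-type replicates 5 to 8 are lower in the LHCB and LHCA rows, and the ago4 column is higher in all 46 rows.

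In the groups with an ago label most members lay above wt col-0 replicates 1 to 4, by less when wt21 replicates 1 to 4 were the control, and edgeR called 0 of 46 in each of the 6 comparisons, which share their controls. Of all features, 0.239% were called higher for ago4, 0.0057% for ago5, 0.0114% for ago9, 0.182% for ago4ago9, 0.0968% for ago5ago9 and 0.0057% for ago4ago5ago9. In the same order of groups, the members had median log2 fold changes of 0.60, 0.29, 0.53, 0.39, 0.41 and 0.32, against 0 over all features. With wt21 replicates 1 to 4 as the control the medians were 0.33, 0.06, 0.27, 0.16, 0.14 and 0.06, and 1, 15, 1, 7, 10 and 17 members lay below 0. Higher members with an unadjusted p under 0.05 numbered 39, 9, 39, 24, 24 and 15, against 7.09%, 3.71%, 6.26%, 5%, 5.76% and 5.55% of features, and in ago5ago9 1 lower member also did. DESeq2 called 26 in ago4, 19 in ago9 and 0 in the other 4 groups, and limma voom called 0 in all 6. The DESeq2 shares of features called higher were 3.26% of 5303 in ago4 and 6.61% of 878 in ago9. Only these features were left with an adjusted p by the filtering inside DESeq2, whereas edgeR adjusted over 17557. In ago4, edgeR called 2 without ago4 replicate 2, where 80 of all features were called, and 1 without ago4 replicate 4, where 59 were. It called 1 with only the 8 libraries compared in the fit (0.459% of features higher).

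The ago4 group had the highest median of the 6. All 46 log2 fold changes were above 0, from 0.13 in RBCS1B to 0.77 in LHCB1.4, and 24 members did not overlap with wt col-0 replicates 1 to 4, against 4.24% of features. The family medians were 0.57 in LHCB and LHCA, 0.66 in PSA, 0.56 in PSB, 0.49 in PET and 0.40 in RBCS. The smallest adjusted p-values were those of PETC (0.62 ± 0.16, edgeR adjusted p = 0.0632) and PSAG (AT1G55670), a photosystem I subunit (0.0662). LHCB1.3 had 38771, 34219, 41779 and 28542 CPM in ago4 and LHCA1 had 9918, 7831, 10731 and 6992 CPM. PSAF had 5011, 3997, 5896 and 3371 CPM and PSBR had 8366, 7107, 9867 and 7405 CPM. Replicate 4 had the lowest LHCB1.3, LHCA1 and PSAF of the group. PETE2 had 5722, 4881, 6499 and 5660 CPM and RBCS1A had 59111, 50853, 61606 and 58125 CPM, both above every wt col-0 library.

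In ago5 the log2 fold changes ran from 0.03 in LHCB4.2 to 0.48 in PSAD-2, and 11 members did not overlap with wild type, against 1.99% of features. LHCB1.3 had 32088, 27583, 33667 and 28555 CPM and LHCA1 had 7172, 7499, 7391 and 7513 CPM. PSAF had 3491, 3726, 3257 and 3438 CPM, PSBR 6855, 7898, 6537 and 6501 CPM and PETE2 5080, 4968, 4807 and 4408 CPM. RBCS1A was the most spread of these, with 57454, 51894, 33136 and 43322 CPM, and only its last pair of libraries reached into or below the wt col-0 values. The smallest adjusted p was that of LHCB3 (AT5G54270), an antenna protein of photosystem II (0.46, edgeR adjusted p = 0.641).

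In the libraries labelled ago9 the log2 fold changes ran from 0.00 in RBCS1B to 0.69 in PSAO (AT1G08380), a photosystem I subunit, and 14 members did not overlap with wild type, against 2.54% of features. LHCB1.3 had 40152, 35736, 40359 and 28831 CPM, LHCA1 10403, 9258, 9553 and 7266 CPM and PSAF 5295, 4791, 4362 and 3376 CPM. PSBR had 9272, 8708, 8085 and 6456 CPM, PETE2 5479, 5481, 5715 and 5114 CPM and RBCS1A 56133, 52189, 57980 and 48072 CPM. Replicate 4 was the lowest in all 6 genes. The smallest adjusted p was that of PSBR (0.60, edgeR adjusted p = 0.206). With replicates 1 and 2, which lack AGO4 counts, left out, the median of the members was 0.30 and edgeR again called 0, where 0.00544% of features were called.

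In ago4ago9 the log2 fold changes ran from 0.12 in LHCB1.2 (AT1G29910) to 0.58 in PSAH-1 (AT3G16140), a photosystem I subunit, and 16 members did not overlap with wild type, against 2.34% of features. LHCB1.3 had 32926, 31376, 28495 and 31036 CPM, LHCA1 7013, 8182, 6331 and 6828 CPM and PSAF 3449, 4340, 3362 and 3632 CPM. PSBR had 6369, 7817, 7146 and 7961 CPM, PETE2 4625, 5489, 5106 and 5490 CPM and RBCS1A 58349, 53132, 48143 and 55961 CPM. In PSBR, PETE2 and RBCS1A every library lay above wt col-0 replicates 1 to 4. The smallest adjusted p was that of PETC (0.51, edgeR adjusted p = 0.25).

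The ago5ago9 group had the highest mean ratio of summed LHCB to summed RBCS of the 7 mutants and 4 wild-type sets. Median log2 fold changes were 0.41 over the 46 and -0.06 over the RBCS genes, and 0 members lay higher without overlap, against 2.6% of features. The range was from -0.61 in RBCS1B (edgeR adjusted p = 0.394) to 0.71 in LHCB1.4. Summed LHCB was 145513, 143667, 92315 and 141854 CPM and summed RBCS was 70978, 68159, 57858 and 80816 CPM, a ratio of 1.88 ± 0.243 (SD, n = 4), while single libraries ran from 0.842 to 2.11 over the 24 with an ago label. LHCB1.3 had 41212, 40214, 27874 and 40925 CPM, LHCA1 9449, 9126, 5264 and 9243 CPM and PSAF 4742, 4788, 2215 and 4055 CPM. Replicate 3 was the low library in each. PSBR had 7915, 7583, 4280 and 7640 CPM, PETE2 4536, 4677, 3095 and 5180 CPM and RBCS1A 45330, 42137, 38482 and 51520 CPM. RBCS1B had 813, 697, 1299 and 1843 CPM against 1822, 1973, 1885 and 1438 CPM in wt col-0 replicates 1 to 4. Summed with its near-identical copies RBCS2B and RBCS3B, it stood at 25085 ± 4144 CPM against 26162 ± 2091 CPM (SD, n = 4). The smallest adjusted p was that of PSAG (0.45, edgeR adjusted p = 0.238). Beside these values, the summed root markers, nearly all PYK10 in the wild types, stood at 286 to 436 CPM in ago5ago9. In wt col-0 replicates 1 to 4 they stood at 198 to 269 CPM. The 2 light stress genes summed to 75.6 to 363 CPM in ago5ago9, against 392.1 to 1037 CPM in that set. The part of either list in the ratio was not tested.

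In the libraries labelled ago4ago5ago9 the log2 fold changes ran from -0.04 in LHCB4.2 to 0.50 in LHCA2 (AT3G61470), and 5 members did not overlap with wild type, against 2.44% of features. LHCB1.3 had 36913, 34202, 37016 and 22570 CPM, LHCA1 8257, 7909, 9209 and 4799 CPM and PSAF 3710, 3984, 4812 and 2741 CPM. Replicate 4 was the lowest in these. PSBR had 6931, 7882, 8170 and 6710 CPM, PETE2 4428, 5029, 5574 and 4921 CPM and RBCS1A 53824, 27546, 51721 and 54545 CPM, with replicate 2 the low library for RBCS1A. The smallest adjusted p was that of PSBR (0.47, edgeR adjusted p = 0.312). The summed root markers, nearly all PYK10 in the wild types, stood at 332 to 415 CPM in this group. They lay above wt col-0 replicates 1 to 4 without overlap, and their part in these values was not tested.

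With wild-type replicates 5 to 8 as the control, the ago groups gave many calls. The members that edgeR called higher than in wt col-0 replicates 5 to 8 numbered 44 for ago4 (7.46% of features), 42 for ago5 (4.9%), 44 for ago9 (6.63%), 44 for ago4ago9 (6.45%), 41 for ago5ago9 (8.41%) and 42 for ago4ago5ago9 (5.11%). In ago5ago9, RBCS1B was called lower (-0.88 ± 0.28, edgeR adjusted p = 0.0253), where 8.73% of features were. The near-identical RBCS1B, RBCS2B and RBCS3B together did not follow this call. Their sum in ago5ago9 was 25085 ± 4144 CPM (SD, n = 4), against 21814 ± 1936 CPM in wt col-0 replicates 5 to 8. In wt21 replicates 5 to 8 it was 30613 ± 6473 CPM. Against wt21 replicates 5 to 8 the counts higher were 38, 16, 33, 25, 30 and 20, where 2.79%, 1.37%, 2.86%, 2.03%, 5.02% and 2.12% of features were called higher, and RBCS1B was lower in ago5ago9 (-1.09, edgeR adjusted p = 0.00778), where 5.82% were. The calls therefore followed the choice of wild-type set, and the labels do not say which set was handled with the mutants.

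Few genes of the other photosynthesis lists were called in ago groups. In ago4, 4 carbon fixation genes rose, led by GAPA-2 (0.60, edgeR adjusted p = 0.0156) and GAPB (0.65, 0.024), subunits of the chloroplast glyceraldehyde phosphate dehydrogenase, and so did ATPC1, the gamma subunit of the chloroplast ATP synthase (0.42, 0.0483). In ago5ago9, PORB, which reduces protochlorophyllide in the light, rose (0.91 ± 0.20, edgeR adjusted p = 0.0466).

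Libraries of 1 group also differed in LHCB beside light and clock genes. In wt21, replicates 1 and 2 had summed LHCB of 134842 and 128980 CPM, with 151 and 159 CPM of ELIP1, an early light-induced protein gene, and 43.3 and 28.8 CPM of CCA1, a morning clock gene. Replicates 3 and 4 had 83389 and 97962 CPM of LHCB, with 830 and 734 CPM of ELIP1 and 80.5 and 86.1 CPM of CCA1. The wt21 replicates with higher LHCB thus had lower ELIP1 and CCA1. In ago4 replicate 4, LHCB was 105468 CPM and ELIP1 1265 CPM, against 124355 to 156506 CPM and 199.5 to 381 CPM in the other 3. In ago4ago5ago9 replicate 4, LHCB was 76827 CPM and ELIP1 993 CPM, against 117745 to 132888 CPM and 212 to 268 CPM in the other 3. In ddm1, LHCB was low at 309 to 631 CPM of ELIP1 and 34.1 to 65.5 CPM of CCA1. The libraries labelled ago9 did not show this pattern in the 2 light stress genes taken as a sum. In ago9 replicate 4, LHCB was 105506 CPM, against 134638 to 152753 CPM in the other 3. The summed light stress genes there stayed within 417 to 483 CPM over the group. In ago5ago9 replicate 3, LHCB was 92315 CPM, in a group where that sum was 75.6 to 363 CPM. Libraries of ago5, ago4ago9 and wt col-0 replicates 1 to 4 were not set side by side in this way. Their light stress sums ran from 609 to 1249, 514 to 1222 and 392.1 to 1037 CPM. All these values were picked after they were seen, and the part of light or time of harvest was not tested.

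**Figure D5:**
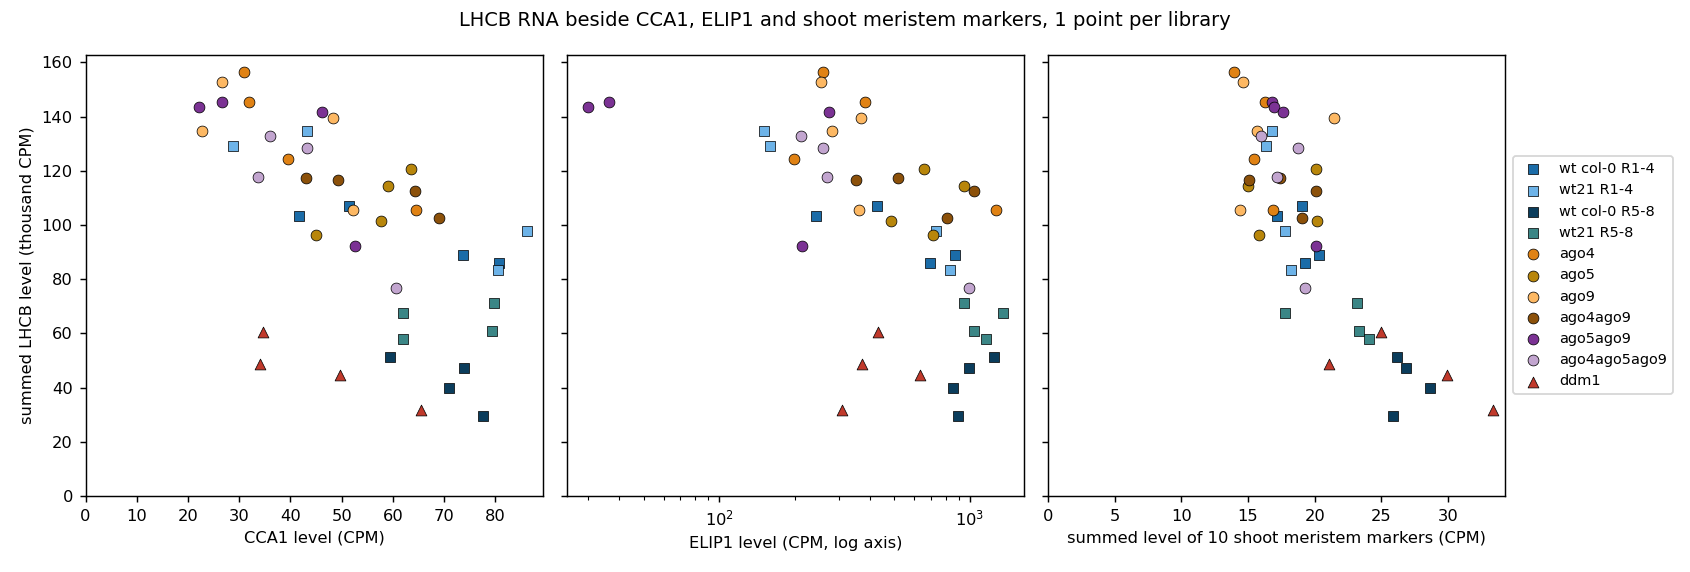
Summed LHCB CPM (in kCPM) of each library against CCA1 CPM, ELIP1 CPM (log axis) and the summed CPM of 10 shoot meristem markers, 1 point per library, coloured by group and wild-type set. Wild-type replicates 5 to 8 combine low LHCB with ELIP1 of 856 to 1359 CPM, and the 4 ddm1 libraries combine low LHCB with meristem marker sums of 21.1 to 33.4 CPM.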

How the data were processed

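Shoot apex libraries were compared by the genotype in their labels. The authors deposited 1 table of estimated counts per feature with 60887 features, of which 31189 are transposable elements and 2 are reporter rows that took 4.87e-05% of counts and were left out. The submitters' processing notes name TAIR10 and DESeq2, while the aligner, the counting tool and the annotation are not given in the sources used here. Of the non-zero deposited estimated counts 6.26% were not whole, and all were rounded.

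Counts were filtered with filterByExpr, scaled by TMM (factors 0.855 to 1.33) and tested with edgeR 4.0.16 in R 4.3.3 (glmQLFit, glmQLFTest) in 1 fit of 11 means over 44 libraries, with both wild types split by replicate number. Benjamini-Hochberg adjustment ran over 17557 features and calls were made at an adjusted p under 0.05. The common biological coefficient of variation was 0.187. CPM values are TMM-scaled, and 3 counts, taken as the limit that a count of 0 allows, correspond to 0.282 to 0.670 CPM. Intervals of this kind cover counting error only. Alternatives used DESeq2 1.42.0 and limma 3.58.1 (voom), other scalings, filters and controls, and each library left out in turn. Coordinates, transcript lengths, coding identity and promoter windows came from RefSeq TAIR10.1, used for annotation only. The fit was tested on simulated data. Replicates of a group differed by more than sampling noise in all 98 pairs (chi-square per degree of freedom 2.84 to 128).

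The members and lists were chosen with earlier results of these data known. The most abundant member of each family is shown in every library. In each comparison the members with the highest and lowest log2 fold change, and of the called ones the 3 with the smallest p in each direction, are named. Of the other lists (chlorophyll synthesis, carbon fixation, electron transport and ATP synthase, regulators, sigma factors, light stress, clock, and markers of meristem, root, stomatal lineage, seed storage and vascular tissue) the 2 genes with the smallest p are named where called. Other genes were named after their values were seen. Same-numbered libraries of different groups did not deviate together (correlations -0.174 to 0.234 over 144 pairs), so the main fit used no pairing. The labels do not say whether libraries of the same number were handled together.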

Additional observations from a re-analysis of the deposited data

Results flagged for a closer look

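Of 77 tests of whether the highest or lowest library of a group of 4 stands apart from its others, 9 passed, where chance passes about 1 in 20. The tests are not independent, since the sum over all 46 members holds the family sums and all use the same libraries. The count of 9 can therefore not be set against that rate. In ago5ago9, replicate 3 stood low in 5 of the sums. It had 199235 CPM over all 46 members (nearest other library 295863), 92315 CPM of LHCB (141854), 15286 CPM of LHCA (24300), 13717 CPM of PSA (24816) and 16265 CPM of PSB (28330). The LHCA sum of ago4ago5ago9 replicate 4 stood low at 14416 CPM (nearest 22590), and the PSA sum of ddm1 replicate 3 stood low at 7495 CPM (nearest 11314). In wt21, the PET sum of replicate 8 stood high at 5826 CPM (nearest 4946) and the RBCS sum of replicate 4 stood high at 88723 CPM (nearest 78897). Some of these libraries also differed in makeup. In ago5ago9 replicate 3, AT3G41768 took 12.8% of counts, against 4.55% to 5.35% in the rest of its group. Chloroplast genes took 12.4%, against 4.81% to 7.34%. In ddm1 replicate 3 these shares were 12.9%, against 1.17% to 6.71%, and 10.6%, against 1.97% to 7.95%. In ago4ago5ago9 replicate 4 they were 2.22% and 4.56%. Replicates 2 and 3 were near it, at 2.24% and 2.86% and at 3.56% and 3.65%. Replicate 1 was the library apart in makeup, at 9.61% and 9.90%. The part of library preparation or sampling in the sums that stood apart was not tested.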

How the results depend on the processing

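The wild-type set used as control moved the counts of members called more than any other choice tried. With wt col-0 replicates 5 to 8 they were 44 for ago4, 42 for ago5, 44 for ago9, 44 for ago4ago9, 42 for ago5ago9, 42 for ago4ago5ago9 and 5 for ddm1. Against wt21 replicates 5 to 8, a control added after seeing the data, they were 38, 16, 33, 25, 31, 20 and 19. Against all 8 wt col-0 libraries they were 44, 0, 37, 23, 34, 5 and 5, where 5.06%, 0.0911%, 2.45%, 1.55%, 6.44%, 0.439% and 14.5% of all features were called, and against wt21 replicates 1 to 4 or both wild types' replicates 1 to 4 they were 0 in the 6 ago groups and 46 in ddm1. DESeq2 called 26 in ago4, 19 in ago9 and 12 between wt21 and wt col-0 in replicates 5 to 8, and a fit of only the groups compared called 1 in ago4 and 22 between the wild types. The causes were not tested. Size factors, no filter on low counts, limma voom, unrounded counts, organelle genes removed and, added after seeing the data, members left out of the scaling kept every count within 1.5 times of its value. With the replicate number as a block the count was 39 in ddm1, where 3175 of all features were called. It was 6 between the wild types in replicates 5 to 8, where 131 were. It was 0 in the 6 ago groups and between the wild types in replicates 1 to 4. Same-numbered and different-numbered libraries of different groups correlated alike (medians 0.0196 and -0.00571). This shows no sign of pairing by number but cannot exclude it.

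With 1 library left out, the counts ran from 0 to 2 in ago4, 27 to 42 in ddm1, 26 to 31 between the wt col-0 sets, 7 to 20 between the wt21 sets and 1 to 7 between the wild types in replicates 5 to 8, and were 0 in the other 7 comparisons. Over all features, calls in these fits ran from 21 to 80 in ago4 and 2640 to 3519 in ddm1. They ran from 1266 to 1489 between the wt col-0 sets and 305 to 662 between the wt21 sets. Among the named members, a direction turned where a call stood on either side for LHCB4.2 in ago4ago5ago9, to 1.16 against wt col-0 replicates 5 to 8 and 0.49 against wt21 replicates 5 to 8. With the same wt col-0 set they turned in ddm1 for LHCB4.2 (0.30), LHCB1.4 (0.039), LHCA1 (0.37) and PSAF (0.36), and for LHCB2.2 (0.66) and PSAD-2 (0.69), both called higher. In all, 25 of the 46 members lay above 0 there. In ago groups uncalled values near 0 also turned, such as RBCS1B in ago4 (-0.12), LHCB1.3 (-0.02) and RBCS1A (-0.10) in ago5 and LHCB1.2 in ago4ago9 (-0.12), each against wt21 replicates 1 to 4. Leaving out the libraries labelled ago9 replicates 1 and 2, added after seeing the data, gave 0 called in ago9. All members were well above the floor, with a lowest count of 700, but the part of depth in the differences was not tested. How reads were shared between near-identical copies was not tested.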
